A study of Homo sapiens with 9 samples.

Results

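The guanylate-binding proteins are large GTPases of the dynamin superfamily that cells make in response to interferon-gamma. Their 9 mouse genes listed here, Gbp2, Gbp3, Gbp4, Gbp5, Gbp6, Gbp7, Gbp8, Gbp9 and Gbp10, were chosen by symbol, and all 9 were among the 17369 genes of the expression table. RNA was sequenced from 9 whole orthotopic thyroid tumors, 3 in each of 3 groups, and was reported as FPKM, which are fragment numbers scaled by transcript length and library size. Hosts were 6-week-old female mice, 100000 cells were injected into the left thyroid gland, and tumors were collected 14 days later. Groups are called by the codes in their labels. SFOG tumors grew from original TBP3743 cells in B6129SF1 hybrid hosts. SFSC tumors grew from adapted cells in the same hybrid hosts, and B6SC tumors from adapted cells in inbred C57BL/6 hosts. TBP3743 is 1 murine anaplastic thyroid cancer line from a B6129SF1 mouse with a thyroid-specific Braf mutation that replaces a valine with a glutamate and a thyroid-specific deletion of Trp53, so tumors of all 3 groups share these alleles. The adapted cells had passed through C57BL/6 mice for 3 rounds, each started from the largest tumors of the round before. No drug treatment is named for these tumors. The organism field of the labels reads human, but the hosts, the mm10 genome build and the gene symbols are those of mouse.

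Interferon-gamma acts through its receptor and the kinases Jak1 and Jak2, and Irf1 is a transcription factor that takes part in switching on the Gbp genes. The proteins gather on the membranes of pathogen vacuoles and on bacteria in the cytosol, where they help to break the membrane open and to engage inflammasomes. Gbp2 and Gbp5 carry a lipid (prenyl) anchor at their end that holds them on membranes. In tumors, high Gbp transcripts are commonly read as a trace of interferon-gamma exposure, which can reach tumor cells, macrophages and vessels alike. The mouse genes lie in clusters on separate chromosomes, Gbp2, Gbp3, Gbp5 and Gbp7 in one and Gbp4, Gbp6, Gbp8, Gbp9 and Gbp10 in the other. Genes within a cluster are close in sequence, Gbp6 and Gbp10 most of all. How reads that fit several of them were assigned is not given in the sources used here, so the split between such neighbors is uncertain. A mouse annotation and mouse sequences were not used here, so the genes are given by symbol without coordinates.

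The labels call the samples cancer epithelial cells, although whole tumors were sequenced. The keratin genes Krt8 and Krt18 were at 110 FPKM or more in every tumor, and Krt8 was called lower in both adapted groups. Its mean was 510 FPKM in SFOG tumors, 205 FPKM in SFSC tumors and 228 FPKM in B6SC tumors, and against SFOG it fell by 1.32 (limma adjusted p = 0.0189) and by 1.12 (limma adjusted p = 0.0346) on the log2 scale, opposite in direction to the Gbp genes described next. Krt18 differed by -0.94 and -0.93 (limma adjusted p = 0.116 and 0.131) and was not called, and the part of these shifts in the Gbp values was not tested. Epcam was at most 2.49 FPKM and Cdh1, the E-cadherin gene, at most 4.48 FPKM. The thyroid transcription factor gene Nkx2-1 was between 23.5 and 44.5 FPKM in the tumors. Tshr, Slc5a5, Foxe1, Duox2 and Dio1 were under 1 FPKM in every tumor, and Pax8 was at most 1.61 FPKM. Skeletal muscle stood out in a pair of tumors, where 12 muscle genes took 6.18% of the total FPKM of SFSC replicate 3 and 1.19% of that of B6SC replicate 1, while no other tumor exceeded 0.142%.

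All 9 Gbp transcripts were lowest in the SFOG group, and the mean of each was highest in the B6SC group. Gbp2, the most abundant member, measured 62.5, 56.6 and 33.5 FPKM in the SFOG tumors, 129.9, 196 and 198 FPKM in the SFSC tumors, and 251, 332 and 473 FPKM in the B6SC tumors (replicates 1 to 3 in each group). The 3 groups did not overlap, and by its FPKM Gbp2 moved from a median rank of 1414 among all genes of an SFOG tumor to 375 in an SFSC tumor and 186 in an B6SC tumor. Summed over the 9 members, FPKM was 89.9 ± 26.3 in the SFOG group, 308 ± 74.3 in the SFSC group and 585 ± 177 in the B6SC group (SD, n = 3 tumors each). The sums were separate for each pair of groups (p = 0.1 for each pair by a two-sided exact permutation test, which with 3 tumors against 3 cannot go lower). In whole tumors, more cells that express a gene and more RNA per cell cannot be told apart.

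**Figure D1:**
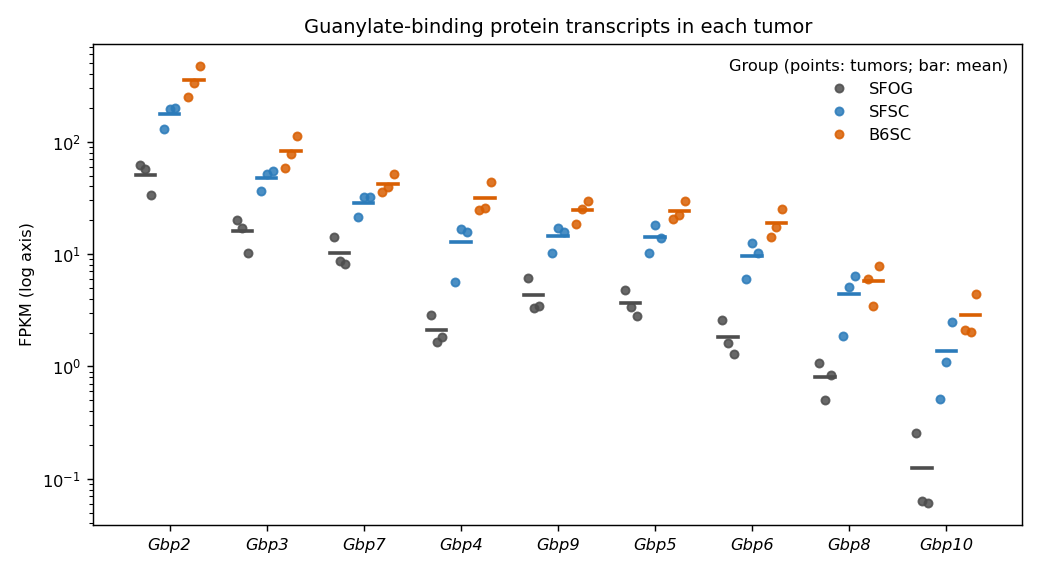
FPKM (log axis) of the 9 Gbp genes, ordered by mean level, in each of the 9 tumors, with points for tumors and bars for group means. Every adapted tumor lies above every SFOG tumor for each gene, and the B6SC and SFSC points overlap for Gbp8 and Gbp10.

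Gbp3, another member of the Gbp2 cluster, measured 20.2, 17.2 and 10.3 FPKM in the SFOG tumors, 36.3, 51.9 and 55.1 FPKM in the SFSC tumors, and 57.7, 78.1 and 113 FPKM in the B6SC tumors. Gbp7, which has been linked to the oxidative defence of macrophages, measured 14.1, 8.66 and 8.12 FPKM in the SFOG tumors, 21.2, 32.4 and 32.4 FPKM in the SFSC tumors, and 35.4, 39.1 and 51.5 FPKM in the B6SC tumors. For both genes the 3 groups were separate, but the gap between the adapted groups was narrow. Gbp5, whose product has been linked to assembly of the Nlrp3 inflammasome, measured 4.83, 3.41 and 2.80 FPKM in the SFOG tumors, 10.1, 18.2 and 13.95 FPKM in the SFSC tumors, and 20.6, 22.4 and 29.5 FPKM in the B6SC tumors. Its groups did not overlap either.

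In the other cluster, Gbp4 measured 2.88, 1.64 and 1.83 FPKM in the SFOG tumors, 5.69, 16.8 and 15.9 FPKM in the SFSC tumors, and 24.8, 25.5 and 43.5 FPKM in the B6SC tumors. SFSC replicate 1 was far below the other two tumors of its group for this gene. Gbp6, a member recruited to parasite vacuoles, measured 2.57, 1.62 and 1.28 FPKM in the SFOG tumors, 5.99, 12.5 and 10.2 FPKM in the SFSC tumors, and 14.2, 17.4 and 25.4 FPKM in the B6SC tumors. Gbp9 measured 6.14, 3.31 and 3.42 FPKM in the SFOG tumors, 10.3, 17.2 and 15.7 FPKM in the SFSC tumors, and 18.7, 25.4 and 29.4 FPKM in the B6SC tumors. The 3 groups were separate for Gbp4, Gbp6 and Gbp9.

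The lowest members were Gbp8 and Gbp10. Gbp8 measured 1.07, 0.499 and 0.843 FPKM in the SFOG tumors, 1.86, 5.10 and 6.35 FPKM in the SFSC tumors, and 5.97, 3.43 and 7.87 FPKM in the B6SC tumors. Gbp10 measured 0.254, 0.0633 and 0.0608 FPKM in the SFOG tumors, 0.510, 1.09 and 2.497 FPKM in the SFSC tumors, and 2.11, 2.01 and 4.42 FPKM in the B6SC tumors. For both genes the adapted groups overlapped, while every adapted tumor was above every SFOG tumor.

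The order of levels by mean FPKM over the 9 tumors was Gbp2, Gbp3, Gbp7, Gbp4, Gbp9, Gbp5, Gbp6, Gbp8 and Gbp10. Gbp2 was above Gbp3, and Gbp3 above Gbp7, in 9 of 9 tumors. The middle of the order was not resolved, since Gbp4 was above Gbp9 in 4 of 9 tumors and Gbp9 above Gbp5 in 5 of 9. Gbp4 was below Gbp9 in each of the 3 SFOG tumors and above it in each of the 3 B6SC tumors. Gbp6 was above Gbp8, and Gbp8 above Gbp10, in 9 of 9 tumors.

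Group means were compared on log2(FPKM + 1) by limma, with the 9 tumors in a single model, over the 10263 genes that reached 1 FPKM in 3 or more tumors. This scale understates the change of weakly expressed genes. A gene was called where its log2 fold change exceeded 1 in size and its p, adjusted over all these genes by the Benjamini-Hochberg method, was under 0.05. All 9 members passed the filter on low values. Gbp2, Gbp3, Gbp4, Gbp5, Gbp6, Gbp7 and Gbp9 were above 1 FPKM in every SFOG tumor, whereas Gbp8 and Gbp10 passed through the adapted tumors, so for these 2 genes a difference was built into passing and their calls are given as description. In the other lists below, calls of Ifng, Ciita, Cd3g, Cd2, Clec9a and Oas3 are description too. Each of these was under 1 FPKM in some SFOG tumors and reached the filter only with adapted tumors. Each group enters a pair of comparisons, so the comparisons share tumors and are not independent of each other.

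The comparison of SFSC with SFOG tumors sets adapted against original cells in the same hybrid host. Of the 7 members that were above 1 FPKM in every SFOG tumor, 7 were called higher, against 2.36% of all genes tested. The median log2 fold change of these 7 members was 1.68, against -0.03 over all genes tested. Of the 9 members 8 were called, with a median of 1.55. Gbp4 had the largest value on this scale, 2.04 (standard error, SE, 0.38, limma adjusted p = 0.0176), and its mean FPKM was 6.03-fold higher. Gbp6 rose by 1.88 (SE 0.29, limma adjusted p = 0.00967), Gbp2 by 1.78 (SE 0.30, limma adjusted p = 0.0122) and Gbp5 by 1.68 (SE 0.23, limma adjusted p = 0.00708). The rises of Gbp3, Gbp9, Gbp8 and Gbp7 lay between 1.41 and 1.55, with adjusted p from limma between 0.0122 and 0.0436. Gbp10 had a log2 fold change of 0.99 (SE 0.33, limma adjusted p = 0.103) and was not called. For all 9 members every SFSC tumor was above every SFOG tumor, a separation that 13.6% of all genes tested showed in this direction.

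Calls in the hybrid hosts depended on single tumors. Gbp2, Gbp5 and Gbp6 were called in each of the 9 fits that left out 1 tumor, whereas Gbp8 lost its call in 7 of them, Gbp3 in 3, Gbp4 in 2, and Gbp7 and Gbp9 in 1 each. Without SFOG replicate 3 there were 3 members called, and without SFSC replicate 2 there were 5. Without SFSC replicate 1, the tumor with the lowest value of the group for each member, the median log2 fold change was 1.88. Gbp8 also lost its call with a pseudocount of 5, without the filter, after quantile normalization and in a model of only the groups compared. With replicate number as a block, Gbp8 and Gbp3 lost their calls (limma adjusted p = 0.0669 and 0.052). With both muscle-rich tumors left out, Gbp8 and Gbp4 lost theirs (limma adjusted p = 0.124 and 0.0552). Gbp10 was called with a pseudocount of 0.1.

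The comparison of B6SC with SFOG tumors differs in both the cells and the host, whose parts cannot be told apart within it. Of the 7 members above 1 FPKM in every SFOG tumor, 7 were called higher, against 2.42% of all genes tested. The median log2 fold change of these 7 members was 2.43, against -0.03 over all genes tested. All 9 members were called, with a median of 2.31. Gbp4 rose by 3.34 (SE 0.38, limma adjusted p = 0.00287), the 3rd largest log2 fold change of the 10263 genes, and its mean FPKM was 14.8-fold higher. Gbp6 rose by 2.81 (SE 0.29, limma adjusted p = 0.00268), Gbp2 by 2.77 (SE 0.30, limma adjusted p = 0.00285) and Gbp5 by 2.43 (SE 0.23, limma adjusted p = 0.00209). Gbp3, Gbp9, Gbp7, Gbp8 and Gbp10 rose by between 1.72 and 2.31 (adjusted p from limma between 0.00287 and 0.0229). In mean FPKM the rises ran from 4.08-fold for Gbp7 and 5.21-fold for Gbp3 to 10.4-fold for Gbp6 and 14.8-fold for Gbp4. No ratio is given for Gbp10, whose SFOG mean of 0.126 ± 0.111 FPKM (SD, n = 3) rested on replicate 1. Every B6SC tumor was above every SFOG tumor for all 9 members, as for 14.9% of all genes tested. Gbp8 and Gbp10, the least abundant members, lost their calls in 5 and 4 of the 9 fits that left out 1 tumor, and the other 7 members kept theirs in each. With a pseudocount of 5 both also lost their calls, with log2 fold changes of 0.87 for Gbp8 and 0.60 for Gbp10. In a test for changes above 1 on the log2 scale, rather than above 0, 0 of the 9 members passed against SFOG in either adapted group.

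**Figure D2:**
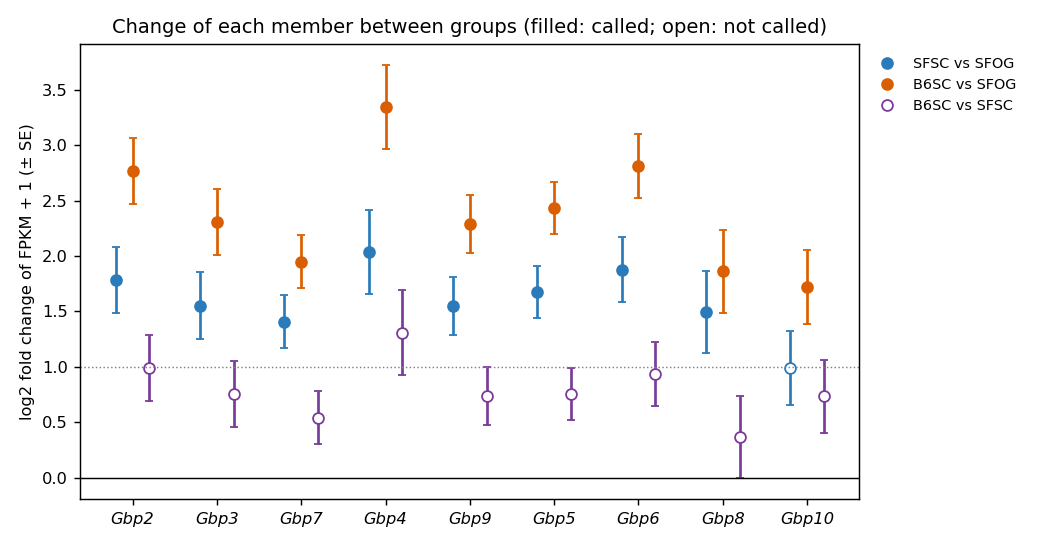
Log2 fold change of FPKM + 1 (± standard error from limma, all 9 tumors in the model) of each member for the 3 pairs of groups. Filled points passed the thresholds and open points did not, and the dotted line marks a log2 fold change of 1. Gbp4 has the largest value in each comparison, up to 3.34 for B6SC against SFOG.

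The comparison of B6SC with SFSC tumors sets inbred against hybrid hosts with the same adapted cells. By limma 0 of the 9 members were called, as for 0 of 10263 genes called higher (0%) in this pair. All 9 log2 fold changes were above 0, from 0.37 for Gbp8 to 1.31 for Gbp4 (SE 0.38, limma adjusted p = 0.602), with a median of 0.75 against 0.01 over all genes tested. An unadjusted p under 0.05 from limma was reached by 6 members, Gbp2, Gbp3, Gbp4, Gbp5, Gbp6 and Gbp9, and by 3.24% of all genes in the same direction. Gbp2 was 352 ± 112 FPKM against 175 ± 38.7 FPKM (SD over 3 tumors in each group), a log2 fold change of 0.99 (SE 0.30, limma adjusted p = 0.602). For 7 members every B6SC tumor was above every SFSC tumor, as for 6.32% of all genes tested, and the exceptions were Gbp8 and Gbp10. Without SFSC replicate 1 the log2 fold change of Gbp8 was -0.044, and those of the other 8 members stayed above 0 with any single tumor left out. Reads of all tumors were aligned to mm10, a C57BL/6 assembly, while the hybrid hosts and the tumor line also carry alleles of the other parent strain, and the effect of this on Gbp values was not tested.

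Within a group, the members shared 1 extreme tumor and were split over the other. In the SFOG group replicate 1 was the highest tumor for 9 of 9 members, as for 36.8% of all genes tested, and the lowest was replicate 3 for 6 members and replicate 2 for 3. In the SFSC group replicate 1 was the lowest for 9 of 9, as for 33.7% of all genes tested, and the highest was replicate 2 for 5 and replicate 3 for 4. In the B6SC group replicate 3 was the highest for 9 of 9, as for 31.9% of all genes tested, and the lowest was replicate 1 for 7 and replicate 2 for 2. The family profile, the median over members of log2(FPKM + 1) minus the mean of each gene over the 9 tumors, ran from -1.65 in SFOG replicate 3 to -0.14 in SFSC replicate 1 and 1.37 in B6SC replicate 3. Gbp5 and Gbp9 followed the family profile most closely, with root mean square differences of 0.09 and 0.11 on the log2 scale over the 9 tumors. Gbp4 differed most, by 0.46. Gbp5 and Gbp9, which lie in different clusters, were the most alike pair of members (root mean square difference 0.14), and Gbp4 and Gbp10 of the same cluster the least alike (0.72).

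Gbp2 held the largest share of the summed Gbp signal in every tumor. Gbp2 held 56.4 ± 3.83% of the summed FPKM in the SFOG group, 56.98 ± 1.40% in the SFSC group and 60.03 ± 1.47% in the B6SC group (SD, n = 3 tumors each). Gbp3 held 17.6 ± 0.961%, 15.6 ± 0.802% and 14.1 ± 0.597% in these groups, which did not overlap. Gbp4 held 2.41 ± 0.593% in the SFOG group and 5.34 ± 0.582% in the B6SC group, also without overlap. The cluster of Gbp4, Gbp6, Gbp8, Gbp9 and Gbp10 made up 11.3, 7.67 and 11.9% of the sum in the SFOG tumors, 10.97, 14.97 and 14.5% in the SFSC tumors, and 15.3, 13.5 and 14.2% in the B6SC tumors, a grouping chosen after the values were seen. These shares overlapped between SFSC and each other group, and the B6SC shares were above the SFOG shares. Exact permutation tests of them gave p = 0.3 for SFSC against SFOG, 0.1 for B6SC against SFOG and 0.7 for B6SC against SFSC. Over the 27 exact permutation tests of shares of single members, the smallest Benjamini-Hochberg adjusted p was 0.27.

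**Figure D3:**
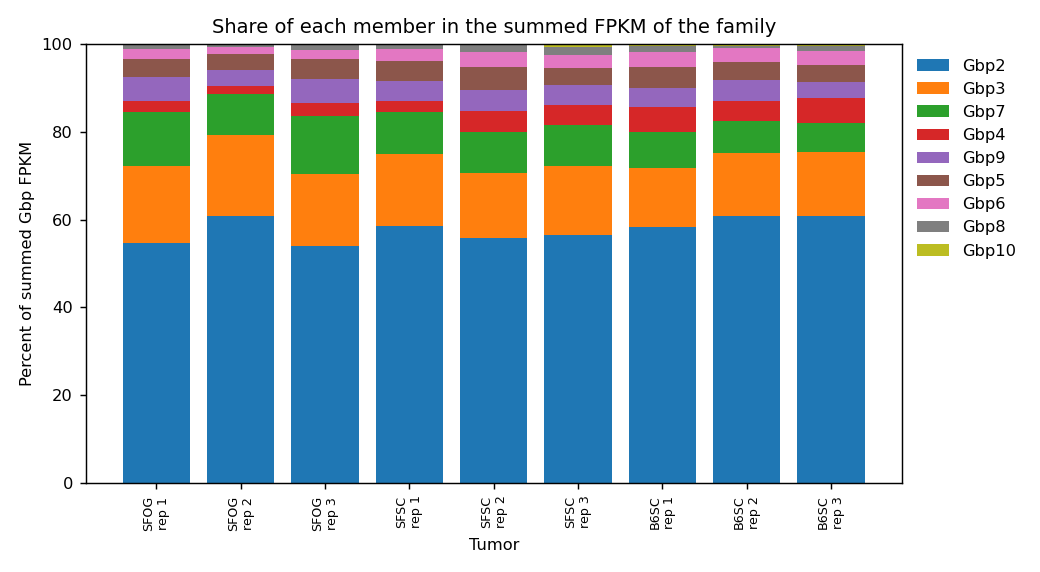
Percent of the summed FPKM of the 9 Gbp genes held by each gene (vertical axis, from 0 to 100) in each tumor (horizontal axis). Gbp2 holds between 53.9 and 60.9% in every tumor.

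Immunity-related GTPases are a second family of interferon-induced GTPases that act on the same vacuoles. All 6 genes of this list that were tested had log2 fold changes above 0 against SFOG in both adapted groups. Of these, 5 were called higher in the SFSC group and 6 in the B6SC group, where the shares over all genes were the 2.36% and 2.42% given above. The median log2 fold changes of these 6 genes were 1.52 and 2.55, beside 1.55 and 2.31 for the 9 Gbp genes. For the 7 Gbp genes above 1 FPKM in every SFOG tumor the medians were 1.68 and 2.43. Iigp1, the most abundant, was 37.3, 21.1 and 17.3 FPKM in the SFOG tumors, 58.5, 146 and 128.9 FPKM in the SFSC tumors, and 192, 236 and 360 FPKM in the B6SC tumors. These values were lowest in SFOG replicate 3 and highest in B6SC replicate 3, as for Gbp2. Between the adapted groups 0 of the 6 were called by limma.

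By the same root mean square difference, the 10 genes outside the family closest to its profile over the 9 tumors were Irgm2 (0.09), Gm4951 (0.13), Igtp (0.13), Slamf8 (0.23), Batf2 (0.23), Il12rb1 (0.23), H2-Q4 (0.24), Tap1 (0.24), Zbp1 (0.25) and Irgm1 (0.25). The median over all genes tested was 1.06. Irgm2, Igtp and Irgm1 are immunity-related GTPases, Batf2 is a transcription factor, and Tap1 is a subunit of the peptide transporter of MHC class I loading. Irgm2 averaged 6.69 FPKM in the SFOG group, 20.3 in the SFSC group and 34.8 in the B6SC group.

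Upstream of the Gbp genes, 13 genes of the interferon-gamma ligand, receptor and signalling list were tested. Against SFOG, 10 had log2 fold changes above 0 in the SFSC group and 12 in the B6SC group. Of the 13, 4 and 6 were called higher, beside 2.36% and 2.42% of all genes tested. The list medians were 0.49 and 0.67, against -0.03 over all genes tested in both comparisons. The 4 called in the SFSC group include Ciita, which passed the filter only with adapted tumors. The ligand gene Ifng was 0.216, 0.107 and 0.202 FPKM in the SFOG tumors, 0.158, 1.504 and 0.524 FPKM in the SFSC tumors, and 2.71, 1.45 and 2.72 FPKM in the B6SC tumors. Ifng was under 1 FPKM in every SFOG tumor and in SFSC replicates 1 and 3. It is among the 6 genes called in the B6SC group. Because it passed the filter only through adapted tumors, that call is given as description. Irf1 had a log2 fold change of 0.68 (adjusted p = 0.073 from limma) in the SFSC group and rose by 1.46 in the B6SC group (adjusted p = 0.00527). The receptor genes were high throughout, with Ifngr1 between 53.7 and 94.7 FPKM and Ifngr2 between 48.4 and 61.9 FPKM, and neither was called in any comparison. Jak1, Jak2 and the feedback inhibitor gene Socs1 were not called either.

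Type I interferon-stimulated genes, which answer to interferon-alpha and interferon-beta, are a further group of interferon targets. Of 18 tested, 17 had log2 fold changes above 0 in each adapted group against SFOG, with medians of 0.81 and 1.00. In each adapted group 4 were called higher, beside 2.36% (SFSC) and 2.42% (B6SC) of all genes tested. Isg15, a ubiquitin-like modifier gene and the most abundant of the list, was 31.3, 31.9 and 18.5 FPKM in the SFOG tumors, 63.4, 38.2 and 31.6 FPKM in the SFSC tumors, and 33.4, 60.1 and 79.8 FPKM in the B6SC tumors, with log2 fold changes of 0.66 and 1.01 in the adapted groups (adjusted p = 0.282 and 0.133 from limma). The profile of the list was -0.28, -0.43 and -0.96 in the SFOG tumors, 0.56, 0.10 and -0.03 in the SFSC tumors, and -0.13, 0.60 and 0.76 in the B6SC tumors. Its replicates stood in the same order as those of the Gbp family profile in the SFOG and B6SC groups and not in the SFSC group, where replicate 1 was highest for this list and lowest for the Gbp genes. The difference between the profiles was not tested.

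**Figure D4:**
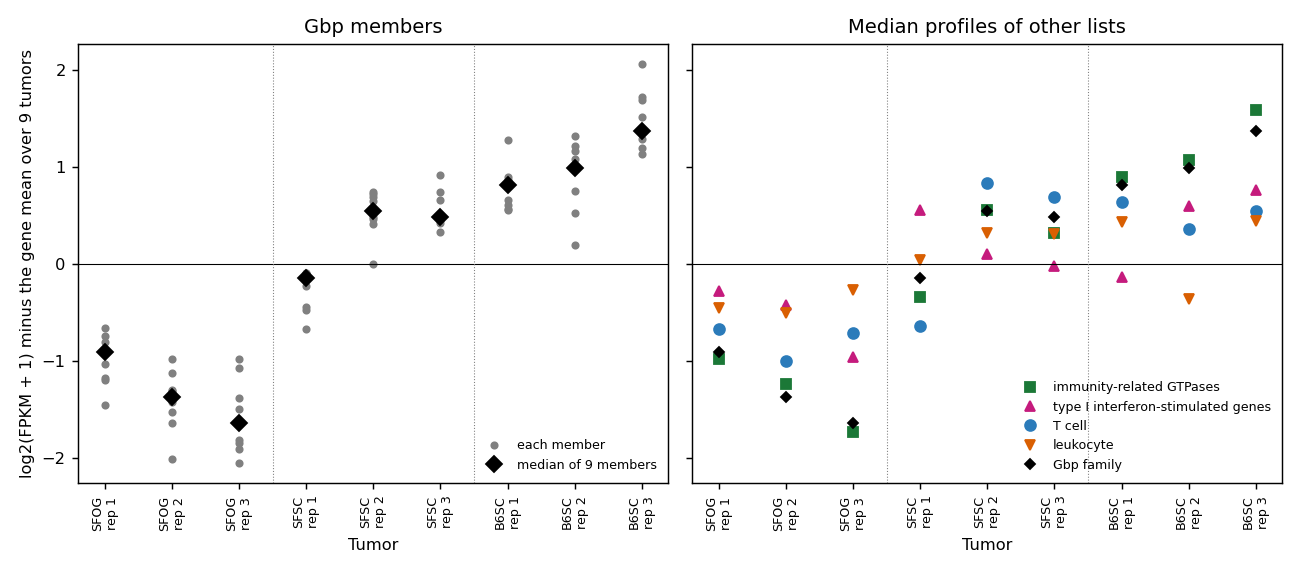
Left, log2(FPKM + 1) minus the mean of the gene over 9 tumors for each Gbp member (grey) and their median (black) in each tumor. Right, the median of the same quantity for the tested genes of 4 other lists beside the Gbp median. Immunity-related GTPases lie close to the Gbp median in each tumor. In SFSC replicate 1, T cell genes (-0.64) lie near the SFOG values and leukocyte genes (0.03) above them. In B6SC replicate 2, leukocyte genes (-0.36) lie within the SFOG values and T cell genes (0.36) above them. These tumors were singled out after their values were seen.

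Leukocyte genes differed among the tumors too, and their part in the Gbp values was not tested. The 5 general leukocyte genes, of which Laptm5 was the most abundant, summed to 192, 185 and 228 FPKM in the SFOG tumors, 268, 342 and 347 FPKM in the SFSC tumors, and 355, 204 and 361 FPKM in the B6SC tumors, and 0 of 5 were called in any comparison. The sum of B6SC replicate 2 lay within the SFOG range, and all other adapted tumors were above it. Only 330 (SFSC) and 317 (B6SC) of 10263 genes were called against SFOG, so an absence of calls in a short cell list says little. The 8 T cell genes in the table, led by Cd3g, summed to between 4.69 and 7.11 FPKM in the SFOG tumors, 7.98, 37.7 and 34.1 FPKM in the SFSC tumors, and 35.8, 24.9 and 30.7 FPKM in the B6SC tumors. SFSC replicate 1 and B6SC replicate 2 are singled out here after their values were seen. In SFSC replicate 1, 9 of 9 Gbp members, 17 of 18 type I interferon-stimulated genes, 6 of 7 macrophage, 4 of 5 leukocyte and 3 of 8 T cell genes were above every SFOG tumor, as were 32.2% of all genes tested. In B6SC replicate 2 the same held for 9 of 9 Gbp members, 17 of 18 type I interferon-stimulated genes, 8 of 8 T cell, 2 of 5 leukocyte and 1 of 7 macrophage genes, and for 27.4% of all genes tested. Cd3g was called higher in both adapted groups and Cd2 in B6SC tumors. Of the dendritic cell genes Clec9a was called higher in both adapted groups, and 0 of the neutrophil, endothelial and fibroblast genes were called. Clec9a was at most 0.416 FPKM in the SFOG tumors. Like Cd3g and Cd2 it passed the filter only with adapted tumors, so these calls are given as description.

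The 7 macrophage genes, led by C1qa, summed to 1231, 1773 and 1632 FPKM in the SFOG tumors, 2212, 1840 and 2310 FPKM in the SFSC tumors, and 2481, 1074 and 2292 FPKM in the B6SC tumors. Every SFSC sum was above every SFOG sum, B6SC replicate 2 was the lowest of all, and 0 of 7 genes were called in any comparison. Of the 7 NK cell genes, the defining markers Ncr1 and Klrb1c were under 1 FPKM in every tumor, and the list sum, led by Gzmb, was between 7.65 and 21.4 FPKM in the SFOG tumors, 19.96, 34.0 and 39.8 FPKM in the SFSC tumors, and between 51.5 and 78.8 FPKM in the B6SC tumors. Against SFOG, all 5 NK cell genes tested had log2 fold changes above 0 in both adapted groups. The granzyme genes Gzma and Gzmb and the granule gene Nkg7 were called higher in the B6SC group, Gzmb by 2.43 (limma adjusted p = 0.007). Nkg7 was also called higher in the SFSC group. All 5 B cell genes were under 1 FPKM in every tumor. All 12 muscle genes had log2 fold changes above 0 in both adapted groups against SFOG, with medians of 3.62 in SFSC and 2.14 in B6SC, and 0 of 12 were called. Their sum ranged over the 9 tumors from 3.89 FPKM in B6SC replicate 2 to 33383 FPKM in SFSC replicate 3. With both muscle-rich tumors left out, 9 members were called in the B6SC group and 6 in the SFSC group against SFOG.

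None of the genes tested in the next 3 lists was called. Over all 10263 genes tested, 330 were called in SFSC and 317 in B6SC tumors against SFOG. An absence of calls in lists this short therefore says little about them. The ATG8 conjugation list holds the autophagy genes that guide these GTPases to vacuoles, and 0 of its 10 genes were called, with median log2 fold changes of 0.01 in the SFSC group and -0.10 in the B6SC group. The prenylation list holds the enzymes that attach and trim the lipid anchor, and 0 of 6 tested were called, with medians of -0.23 and -0.20. Pggt1b, the catalytic subunit for the geranylgeranyl anchor, was between 10.4 and 14.8 FPKM in the tumors. Of the atlastins and dynamins, related membrane GTPases that are not known for interferon induction, 0 of 8 were called, with medians of -0.20 and -0.22. Atl3, an atlastin gene, was lower by less than the fold threshold, with log2 fold changes of -0.62 in SFSC (limma adjusted p = 0.0117) and -0.43 in B6SC tumors (limma adjusted p = 0.0406), as was Opa1, a gene of mitochondrial fusion, with -0.48 (limma adjusted p = 0.0217) and -0.42 (limma adjusted p = 0.0399). Gabarapl2 of the ATG8 list was at -0.46 in B6SC tumors (limma adjusted p = 0.0499). The difference between these lists and the Gbp genes was not tested.

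**Figure D5:**
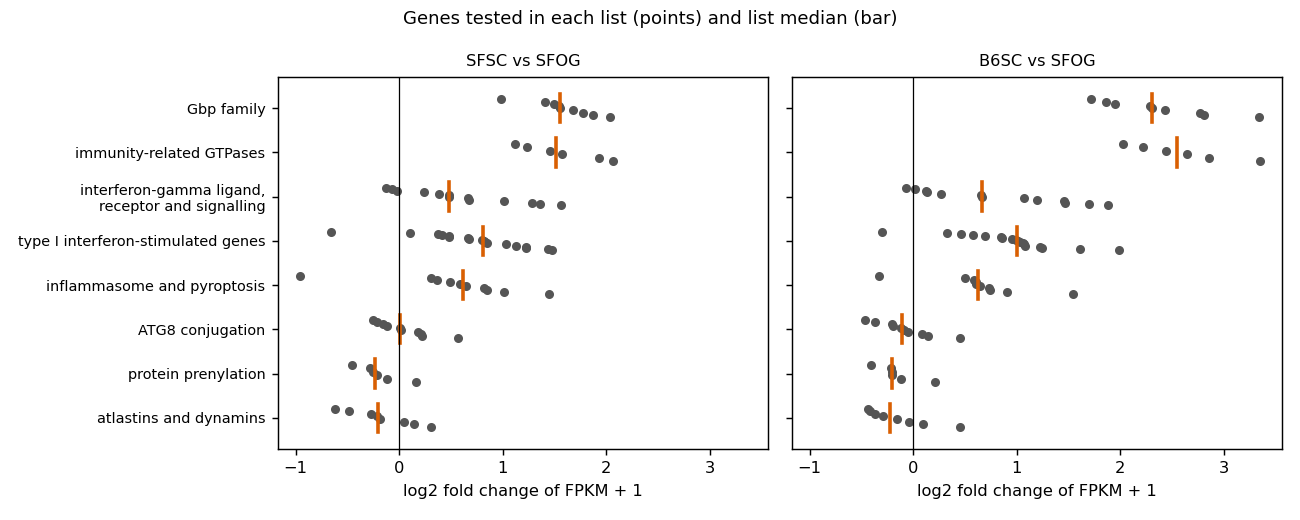
Log2 fold change of FPKM + 1 (horizontal axis) of each gene tested (points) in the Gbp family and in 7 other lists (vertical axis), with list medians as bars, for the SFSC and B6SC groups against SFOG. The Gbp genes and the immunity-related GTPases all lie above 0.9 in both comparisons, whereas the ATG8, prenylation, atlastin and dynamin genes lie between -0.62 and 0.57.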

How the data were processed

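RNA from 9 whole tumors, 3 per group, was analysed, with groups and replicate numbers taken from the sample titles. The authors aligned paired-end reads to mm10 with HISAT2 and made the deposited FPKM values with Cuffnorm. The annotation, the scaling between tumors and the handling of reads that match several genes are not given in the sources used here. Values were taken as log2(FPKM + 1), a pseudocount of 1, and limma 3.58.1 in R 4.3.3 was run on the 10263 genes that reached 1 FPKM in 3 or more tumors (one model of 3 groups, eBayes with a mean-variance trend, Benjamini-Hochberg adjustment). FPKM is not a count, so no count test was used. Single values were compared with exact two-sided permutation tests in scipy 1.17.1. The labels call the tumors of a group biological replicates and do not name the mice, so p-values measure the spread between these tumors.

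Read depth is unknown. Steps between low FPKM values gave a rough relative depth of 0.959 to 1.35 times that of SFOG replicate 1. The test was checked on simulated data. The members and gene lists were chosen with earlier results of these data known. Genes named are the members, genes of the lists and the 10 genes closest to the family profile. Alternatives tried were the pseudocount, filter, scaling, model, threshold and tumors left out. Promoters and proteins of the mouse genes were not analysed here. One further gene is not reported here.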

Additional observations from a re-analysis of the deposited data

How the results depend on the processing

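Several alternatives change only the test and leave fold changes as they are. Among those that move them, 1 value of a member fell below 0, the log2 fold change of Gbp8 in B6SC against SFSC tumors, which was -0.044 without SFSC replicate 1 and up to 0.64 without another tumor. With 1 tumor left out, members called ranged from 3 to 8 in SFSC and from 7 to 9 in B6SC against SFOG, and genes called from 141 to 358 and from 156 to 347. Between the adapted groups genes called ranged from 0 to 6 and members called stayed at 0. The median log2 fold change of the 9 members, Gbp8 and Gbp10 included, ranged from 1.48 to 1.88, from 2.15 to 2.53 and from 0.56 to 0.91 in SFSC against SFOG, B6SC against SFOG and B6SC against SFSC. With both muscle-rich tumors left out the last was 1.10, and fewer samples were fitted. A pseudocount of 0.1 gave medians of 1.90 and 2.70 against SFOG, and one of 5 gave 1.12 and 1.74, as the log2 scale is compressed. A pseudocount of 5 called 122, 130 and 1 genes in the 3 comparisons (main 330, 317 and 3). Testing whether changes exceeded 1 on the log2 scale called 0 members and 3, 7 and 0 genes, and an adjusted p alone called 850 and 693 genes against SFOG. Between the adapted groups, no filter called 1 gene and a model of only the groups compared called 0.

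Same-numbered tumors were correlated over all genes tested after the group mean of each gene was subtracted. The values therefore do not measure how alike whole expression profiles are. These correlations (replicates 1 to 3) were -0.33, 0.03 and 0.01 for SFSC with SFOG, 0.11, 0.30 and 0.07 for B6SC with SFOG, and -0.39, 0.61 and -0.26 for B6SC with SFSC. In none of the comparisons did every pair exceed 0.1, so the numbers were not taken to pair the tumors. With the replicate block, 6 members were called in SFSC and 9 in B6SC against SFOG, and 0 genes between the adapted groups.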

Other observations

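Inflammasome and pyroptosis genes, which act after Gbp proteins have opened a vacuole, were a further list. Of 10 tested, 9 had log2 fold changes above 0 in each adapted group against SFOG. The list medians were 0.62 and 0.63 on the log2 scale, against -0.03 over all genes tested in both comparisons. Casp1 and Pycard were called higher in the SFSC group and Casp1 in the B6SC group, beside 2.36% and 2.42% of all genes tested. Casp1, the inflammatory caspase gene, was 5.70, 6.30 and 5.32 FPKM in the SFOG tumors, 13.6, 17.7 and 22.2 FPKM in the SFSC tumors, and 17.2, 16.8 and 23.0 FPKM in the B6SC tumors. Gsdmd, the pore-forming gasdermin gene, was higher by 0.85 and 0.73 on the log2 scale in the SFSC and B6SC groups (limma adjusted p = 0.00284 and 0.00437), below the fold threshold. Casp4, the gene of mouse caspase-11, differed by 0.49 in SFSC (limma adjusted p = 0.211) and 0.91 in B6SC tumors (limma adjusted p = 0.05).

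Ciita, the activator of MHC class II genes, was ordered unlike the Gbp genes. It was 1.12, 0.749 and 0.971 FPKM in the SFOG tumors, 2.60, 7.47 and 5.20 FPKM in the SFSC tumors, and 2.34, 1.63 and 2.33 FPKM in the B6SC tumors. It rose by 1.56 in the SFSC group (adjusted p = 0.0159 from limma), and in the B6SC group its log2 fold change was 0.67 (adjusted p = 0.193). Ciita passed the filter only with adapted tumors, so its call is given as description.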
